A study of Danio rerio with 19 samples.

Results

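A set of 10 genes of oligodendrocytes and myelin was followed through bulk RNA-seq of larval zebrafish heads. The 9 described here are mbpa, mbpb, mpz and plp1b (structural proteins of the myelin sheath), mag and cldnk (an adhesion molecule and a tight-junction protein of myelin), olig2 (a transcription factor of the oligodendrocyte lineage), and ugt8 and fa2h (enzymes that make the galactolipids of myelin). The rule is a list of gene names, drawn up with earlier results of these data known. All 10 were found among 32020 gene IDs, and the 9 matched their own symbol.

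Myelin is a stack of glial membrane wrapped around axons. In the brain and spinal cord it is made by oligodendrocytes, which arise from precursors that express olig2. Its abundant structural proteins include myelin basic protein and, in fish, myelin protein zero, which in mammals belongs to the Schwann cells of peripheral nerves. Its membrane is rich in galactosylceramide and sulfatide, whose synthesis uses Ugt8, which adds galactose to ceramide, and Fa2h, which hydroxylates the fatty acid. Both enzymes also work in other tissues that make sphingolipids, skin and gut among them.

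Each of the 19 libraries came from 1 larval head with the eyes removed, labelled as brain. One line, scn1lab, has the scn1labΔ44 allele of a sodium channel gene. The other, dyrk1a, has dyrk1aaΔ77 and dyrk1abΔ8, alleles of the paralogous kinase genes dyrk1aa and dyrk1ab. Larvae of each line were homozygous (HOM), heterozygous (HET) or wild type (WT), matched as siblings or cousins from crosses of heterozygous fish, and no larval age is given in the sources used here. Each group had 3 libraries, except dyrk1a HOM with 4. The labels do not say whether a mutation removes the transcript. The CPM of scn1lab was 12.8 ± 5.54 in HOM and 17.0 ± 1.49 in WT of its line (SD, n = 3 each), with overlapping groups, so this transcript level does not check the labels. The deepest library held 29.9 M counts and the shallowest 15.1 M. For the 2 IDs annotated DYRK1A, the CPM in dyrk1a HOM was 46.9 ± 9.16 and 17.0 ± 7.82 (n = 4). In WT of that line it was 36.8 ± 1.52 and 12.5 ± 4.65 (n = 3). HOM lay above WT for the first ID, at 39.3 to 58.8 against 35.2 to 38.2, and overlapped it for the second. Of all genes tested in that comparison, 7.71% had no overlap. The cause was not tested.

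Markers of neurons and of digestive organs varied widely between heads. A list of 16 neuron marker IDs took 0.0774% to 0.162% of the counts in scn1lab HOM and 0.0529% to 0.226% in HET, against 0.367% to 0.506% in WT of that line and 0.400% to 0.678% in dyrk1a libraries. All 16 were detected in every library. A list of 15 digestive organ IDs took 9.24%, 0.0342% and 12.6% in scn1lab HOM1, HOM2 and HOM3 and 0.473%, 7.36% and 0.911% in HET1, HET2 and HET3, but 0.0174% to 0.168% in WT. In dyrk1a it reached 4.37% in HET4 and stayed at or under 0.158% in the others. In bulk samples, fewer cells of a type and less RNA per cell cannot be told apart. Levels below are counts per M (CPM) scaled by trimmed mean of M-values (TMM) over all 19 libraries. They are not comparable between genes, because no gene length was used.

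In the scn1lab line, mbpa, mpz and plp1b were lower in every HOM and HET library than in every WT library. For mbpb the 3 genotypes overlapped. The lipid enzymes ugt8 and fa2h were higher in every HOM and HET library than in every WT library. For ugt8 in HET this did not hold on total counts with no scaling factor. Of all genes tested, 36.5% had no overlap between HOM and WT of this line, and 20.8% had none between HET and WT. In the dyrk1a line the groups overlapped for all 9 genes between HOM and WT, where 7.71% of all genes had no overlap. None of these differences passed an adjusted p of 0.05 in the main test, so they are described by their values and intervals.

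**Figure D1:**
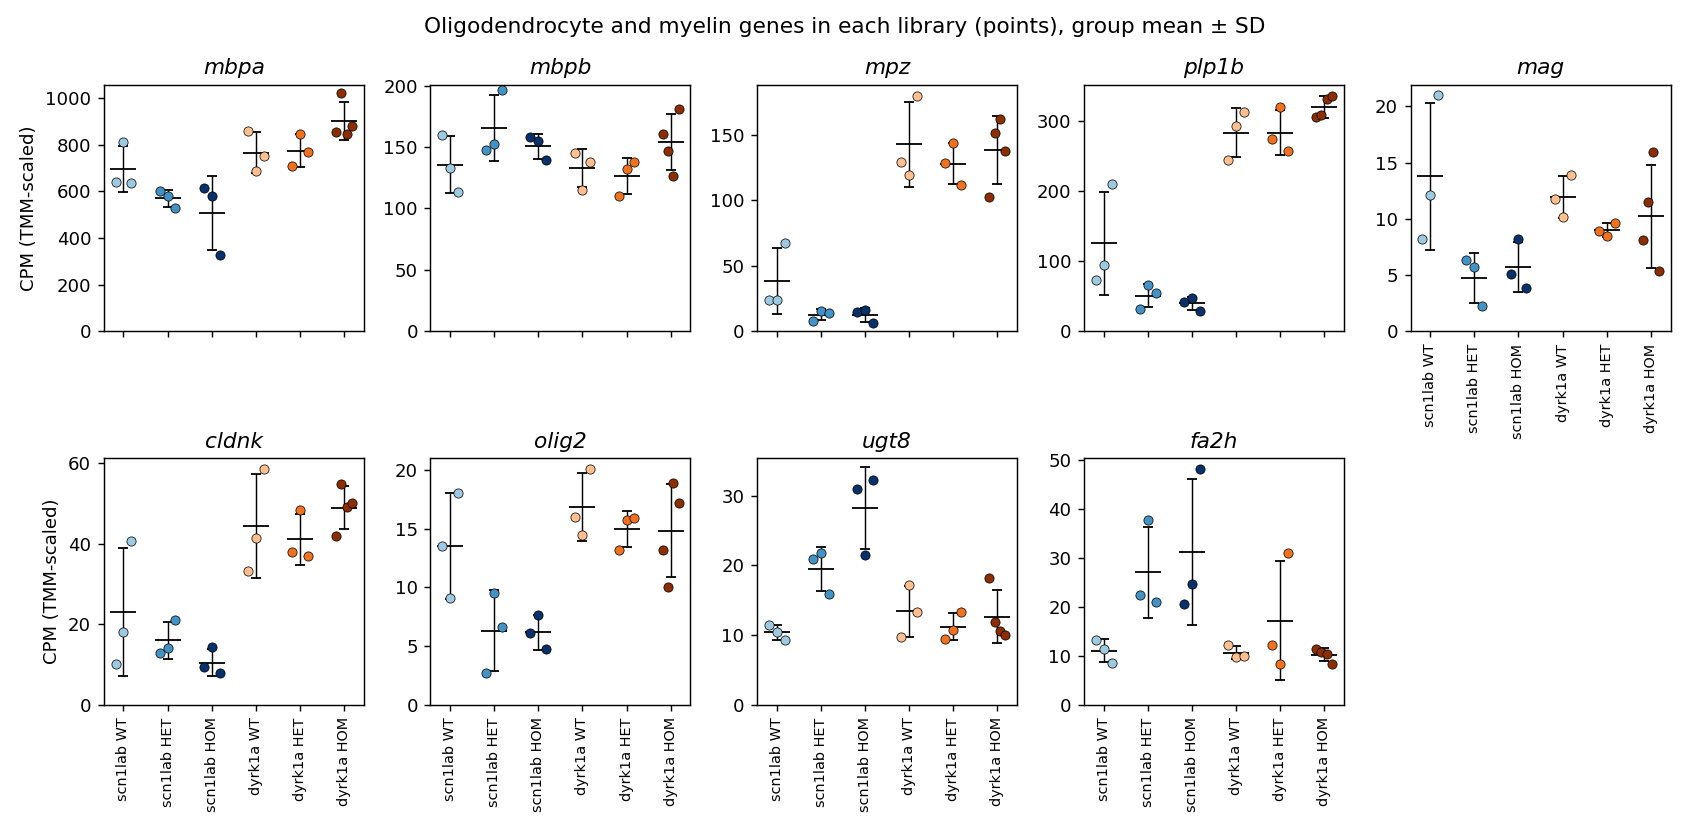
Level of each of the 9 genes in each library (points) as TMM-scaled CPM, by line and genotype, with the group mean and SD (n = 3, and n = 4 in dyrk1a HOM). The vertical axes start at 0 and differ between panels. In scn1lab HOM and HET, mbpa, mpz and plp1b lie below all WT libraries of that line while ugt8 and fa2h lie above them. Of all genes tested, 36.5% have no overlap between HOM and WT, and 20.8% none between HET and WT.

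The gene for myelin protein zero, mpz (ENSDARG00000038609), stood at 14.9, 16.2 and 5.81 CPM in the scn1lab HOM libraries, at 7.62, 15.5 and 14.1 in HET, and at 23.9, 23.9 and 67.0 in WT. Both mutant groups lay below WT, with the third WT library far above the other WT libraries. The log2 change of HOM against WT was -1.63 (SE 0.54, 95% interval of the fold 0.140 to 0.743), with an edgeR quasi-likelihood adjusted p of 0.181. HET differed from WT by -1.62 (SE 0.54, adjusted p = 0.341), and HOM from HET by -0.01. Without the third WT library, the HOM change of mpz was -1.09 and that of plp1b -1.22.

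The membrane protein gene plp1b (ENSDARG00000011929) stood at 41.8, 47.5 and 29.1 CPM in scn1lab HOM, 32.2, 65.6 and 54.2 in HET, and 72.8, 94.1 and 209.6 in WT, again with no overlap and with the third WT library highest. HOM differed from WT by -1.67 (SE 0.44, edgeR adjusted p = 0.16; the fold interval ran from 0.159 to 0.622), and HET from WT by -1.31 (adjusted p = 0.341).

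The myelin basic protein genes, whose product compacts the sheath, differed less. The CPM of mbpa (ENSDARG00000036186) was 616, 579 and 326 in scn1lab HOM, 531 to 600.2 in HET, and 642, 812 and 635 in WT. HOM and HET lay below WT in every library, the lowest value being that of HOM3, and the log2 change was -0.45 (SE 0.30, edgeR adjusted p = 0.429). For mbpb (ENSDARG00000089413), the CPM was 158, 154 and 139 in HOM, 148 to 196 in HET, and 160, 133 and 113.5 in WT, which overlapped. Its log2 change was 0.16 (SE 0.23, edgeR adjusted p = 0.752) and turned to -0.28 on total counts without a scaling factor. Over all 19 libraries mbpb ran only from 110 to 196 CPM. It had the smallest coefficient of variation of the 9 genes, at 15.2%, against 76.7% for mpz and 64.8% for plp1b.

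The adhesion molecule mag and the tight-junction gene cldnk were lower on average in HOM of the scn1lab line. The CPM of mag was 5.05, 8.21 and 3.83 in HOM, 6.32, 5.72 and 2.21 in HET, and 8.20, 12.1 and 21.0 in WT. HOM and WT overlapped only at the top HOM and the bottom WT library, and HET lay below WT. By edgeR, mag differed from WT by -1.27 log2 in HOM (SE 0.53, adjusted p = 0.241) and by -1.53 in HET (adjusted p = 0.341). For cldnk the CPM was 9.27, 14.2 and 7.73 in HOM, 12.7, 14 and 21.1 in HET, and 10.2, 18 and 40.7 in WT, which overlapped; HOM differed by -1.14 (SE 0.50, adjusted p = 0.258) and HET by -0.52 (adjusted p = 0.65).

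The lineage gene olig2 (ENSDARG00000040946) is expressed in precursors of oligodendrocytes and motor neurons. Its CPM was 6.09, 7.65 and 4.73 in scn1lab HOM, 2.69, 9.56 and 6.62 in HET, and 13.5, 9.07 and 18.1 in WT. HOM lay below WT in all libraries, and HET overlapped it at HET2. By edgeR, olig2 differed from WT by -1.13 log2 in HOM (SE 0.49, adjusted p = 0.255) and by -1.11 in HET (adjusted p = 0.377).

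The galactolipid enzymes had values on the other side of WT. The CPM of ugt8 (ENSDARG00000037455) was 31.0, 21.5 and 32.2 in scn1lab HOM, 20.9, 21.8 and 15.9 in HET, and 11.4, 10.4 and 9.31 in WT. HOM differed from WT by 1.45 (SE 0.27, fold interval 1.80 to 4.13, edgeR adjusted p = 0.144), and HET by 0.92 (adjusted p = 0.341). For fa2h (ENSDARG00000090063) the CPM was 20.6, 24.7 and 48.1 in HOM, 22.4, 37.7 and 20.9 in HET, and 13.1, 11.4 and 8.43 in WT; the log2 changes were 1.5 (SE 0.39, fold interval 1.54 to 5.21, adjusted p = 0.16) and 1.3 (adjusted p = 0.341). On total counts with no scaling factor, ugt8 overlapped between HET and WT, at 11.9 to 17.1 against 11.3 to 12.3 CPM. In scaled CPM, both enzymes were higher in all mutant libraries of this line. Among these, HOM2 had a digestive share of 0.0342%. A list of 11 skin marker IDs took 6.18% of its counts, the highest skin share of the 19 libraries. HET3 had the lowest summed skin share, 1.51%, and a digestive share of 0.911%, with ugt8 at 15.9 CPM and fa2h at 20.9. By the mean log2(CPM + 1) of the skin list, however, HET3 stood at 8.92, above the 8.07 to 8.51 of scn1lab WT. With group means removed, the Pearson correlation with the mean of the skin list was -0.01 for ugt8 and -0.38 for fa2h. With that of the digestive list it was 0.52 and 0.65. Within scn1lab alone, with group means kept, ugt8 and fa2h had 0.69 and 0.40 with the skin list. With the digestive list they had 0.78 and 0.80 on that measure. The part of either tissue in the levels of the 2 enzymes was not tested.

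**Figure D2:**
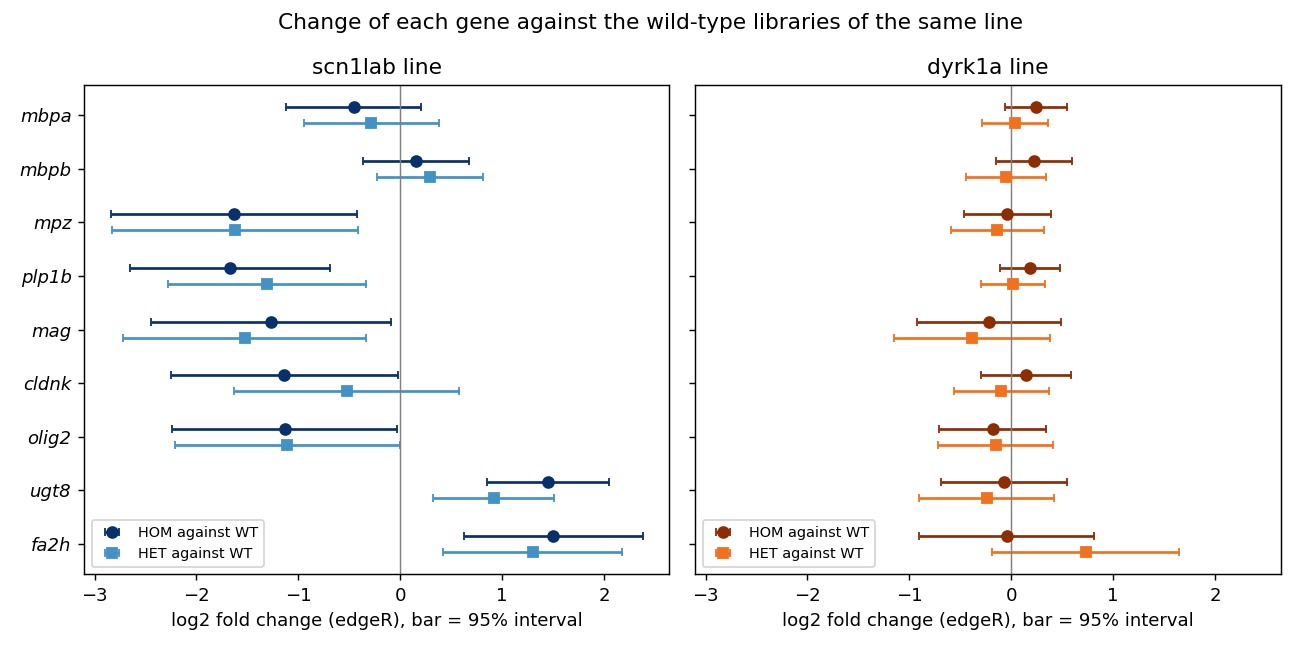
Log2 fold change of each gene against WT of the same line (points), with its 95% interval (bars), from edgeR, for HOM (circles) and HET (squares). In scn1lab, the HOM intervals of mpz, plp1b, mag, cldnk and olig2 lie below 0 and those of ugt8 and fa2h above 0, whereas the intervals of mbpa and mbpb cross it; in dyrk1a all 18 cross 0.

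Of the 9 genes, 0 passed in scn1lab HOM against WT, where 0.00466% of the genes tested were called (1 gene of 21466). At an unadjusted p under 0.05 the edgeR test gave 5 lower genes (plp1b, mpz, mag, cldnk and olig2) and 2 higher (ugt8 and fa2h), where 18.9% of all genes had such a p. The median log2 change of the 9 was -1.13, against 0.09 over all genes tested. Groups that did not overlap were found for 6 of the 9 genes, and for 36.5% of all genes tested. The higher pair and the lower genes make the median a mixture: 6 of the 9 lay below 0 and 3 above.

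The calls differed between fits. When the HET libraries of this line were left out of the fit, edgeR called 10% of all genes, and 2 of the 9: ugt8 (log2 1.45, adjusted p = 0.0223) and fa2h (1.51, adjusted p = 0.0433) were higher, while plp1b had an adjusted p of 0.0564. DESeq2 called 3 of the 9, plp1b lower and ugt8 and fa2h higher, where it called 7.33% of all genes.

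In HET against WT of the scn1lab line, edgeR called 0 of the 9 and 0% of all genes tested (0 of 21466), and 0% also with only these 2 groups in the fit. Unadjusted p-values under 0.05 were found for 4 lower genes and 2 higher ones, with a share of 13.2% over all genes, and DESeq2 called 0 of the 9 and 1.57% of all genes. The groups did not overlap for 6 of the 9, with 20.8% of all genes. The HOM and HET comparisons share the WT libraries, so their similarity is no independent evidence. Between HOM and HET directly, 0 of the 9 were called (0.00466% of all genes), and 0 by DESeq2 (0.270% of all genes). An unadjusted p under 0.05 was found for 0 of the 9 (4.26% of all genes), and groups that did not overlap for 0 (7.86%). The median log2 difference was -0.03, with intervals such as -1.19 to 1.17 for mpz.

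**Figure D3:**
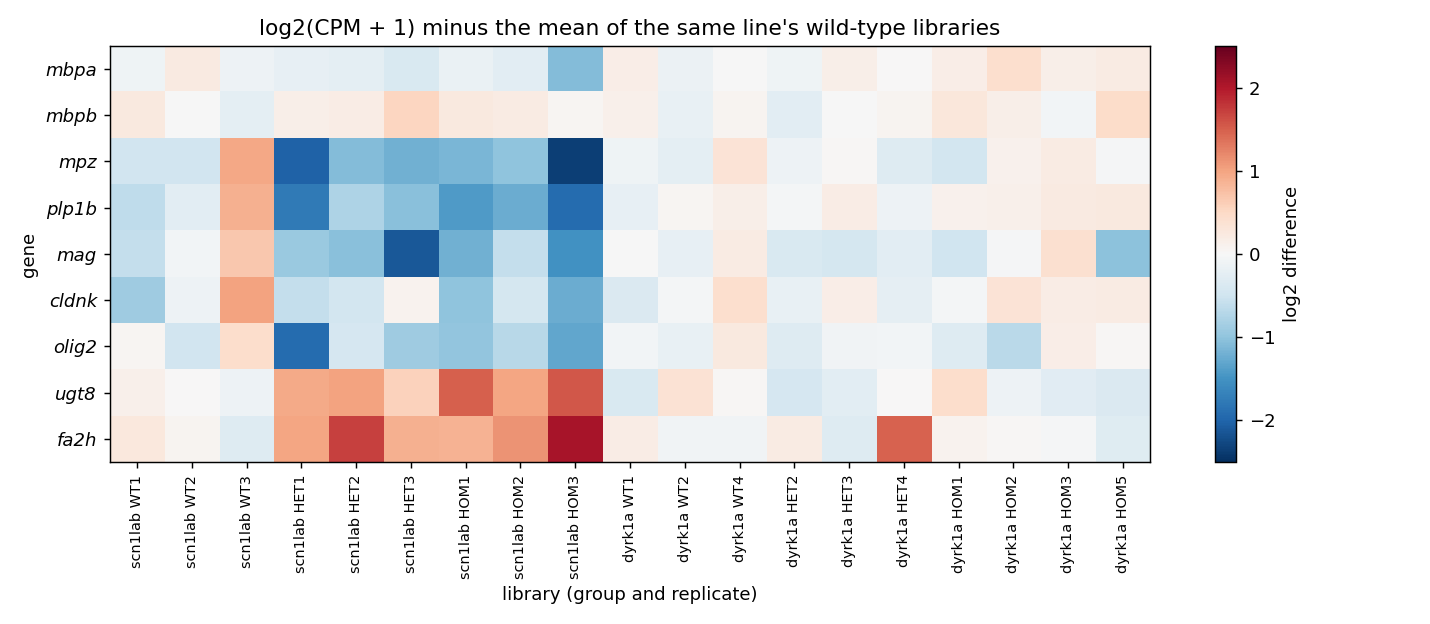
Difference of each library from the mean of the WT libraries of its own line, on the log2(CPM + 1) scale (colour, blue lower and red higher), for the 9 genes (rows) in the 19 libraries (columns). The scn1lab HOM and HET columns are blue for mpz and plp1b and red for ugt8 and fa2h; in dyrk1a, the strongest colour is the red of fa2h in HET4.

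In the dyrk1a line HOM and WT libraries overlapped for each gene. The CPM of mpz was 102, 151, 162 and 137 in HOM, and 129, 119 and 179 in WT, and that of plp1b was 305, 308, 331 and 336 in HOM, and 244, 292 and 313 in WT. The log2 changes were -0.04 for mpz (95% interval of the fold 0.724 to 1.31) and 0.19 for plp1b (0.926 to 1.40). Over the 9 genes the HOM changes ran from -0.22 for mag to 0.24 for mbpa. The HET changes ran from -0.38 for mag to 0.73 for fa2h (fold interval 0.879 to 3.13), and HOM differed from HET by -0.78 for fa2h. A p that misses the threshold does not show that no change occurred.

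Of the 9, edgeR called 0 in dyrk1a HOM against WT, 0 in HET against WT and 0 in HOM against HET, with 0% of the 21025 genes tested called in each. At an unadjusted p under 0.05 there were 0 of the 9 in each, with 7.80%, 3.33% and 6.61% of all genes in turn, and DESeq2 called 0 of the 9 in each, with 0.771%, 0.133% and 0.747% of all genes. Groups did not overlap for 0 of the 9 in HOM against WT (7.71% of all genes), 0 in HOM against HET (6.98%), and 1 in HET against WT (12%), mag, which stood at 8.91, 8.43 and 9.67 CPM in HET and 11.7, 10.2 and 13.9 in WT. The highest HET value of fa2h was 31.0 CPM in HET4, the library with a digestive share of 4.37%, against 12.3 and 8.23 in the other HET libraries.

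The difference between the lines was tested directly (dyrk1a HOM effect minus scn1lab HOM effect). For plp1b it was 1.85 (SE 0.45, unadjusted p = 0.000732, edgeR adjusted p = 0.294), for mpz 1.59 (adjusted p = 0.361), for ugt8 -1.53 (adjusted p = 0.301) and for fa2h -1.56 (adjusted p = 0.362). Of the 9 genes, 0 passed, where 0.0267% of all genes did, and at an unadjusted p under 0.05 edgeR gave 4 positive and 2 negative differences, with 10.8% of all genes. DESeq2 called 2 of the 9, plp1b and ugt8, in this comparison, where it called 1.16% of all genes. For the HET effect, 0 of the 9 passed, where 0.00445% of all genes did, DESeq2 called 0 (0.409% of all genes), and 3 had an unadjusted p under 0.05 (6.12% of all genes).

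Among the WT libraries of the 2 lines, those of dyrk1a all lay above those of scn1lab for mpz and plp1b. The mean CPM of mpz was 143 ± 32.2 in dyrk1a WT and 38.3 ± 24.9 in scn1lab WT (SD, n = 3 each), a difference of 2.02 on the log2(CPM + 1) scale. For plp1b it was 283 ± 35.3 against 125 ± 73.6, a difference of 1.31. Both differences had an exact two-sided permutation p of 0.1, the smallest that 3 against 3 libraries can give. How many of all genes lacked overlap between these WT groups was not computed. Without that share, the lack of overlap for mpz and plp1b cannot be read as particular to these genes. For cldnk the difference was 1.09 (44.4 ± 12.9 against 23.0 ± 15.8 CPM), with overlapping groups and an exact p of 0.2. The other differences were 0.33 for olig2, 0.31 for ugt8, 0.14 for mbpa, -0.02 for mbpb, -0.11 for mag and -0.03 for fa2h, with overlapping groups. Line and any difference in handling between the lines cannot be told apart.

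The 9 genes were then set beside the neuron markers of the same library, as log2(CPM + 1) minus the mean of the neuron list. In scn1lab, the neuron mean itself was 1.5 log2 lower in HOM than in WT. A gene whose own level did not change is therefore higher by 1.5 on this scale. The share of all genes without overlap on it was not computed, so a lack of overlap here cannot be read as particular to these genes. On this scale, mpz differed by -0.00 and plp1b by -0.02 between HOM and WT, with overlapping libraries (exact two-sided p = 1 for both), whereas mbpa was higher by 1.00, mbpb by 1.66, olig2 by 0.50, ugt8 by 2.85 and fa2h by 2.85, with no overlap (exact p = 0.1, the smallest possible). In HET, the neuron mean was lower by 1.14, and plp1b differed by -0.05 and mpz by -0.29 (exact p = 0.9 and 0.5). There mbpb was higher by 1.43, ugt8 by 1.99 and fa2h by 2.34, with no overlap (exact p = 0.1 for each). The libraries overlapped for mbpa, mag, cldnk and olig2. In dyrk1a HOM and HET, no exact p was at the smallest value that those numbers of libraries allow. In dyrk1a HOM, plp1b was higher than WT by 0.43 with no overlap (exact p = 0.0857). The p-values are not adjusted for the 9 genes and 4 comparisons of this kind. The part of the neuron markers in the level of any of these genes was not tested.

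**Figure D4:**
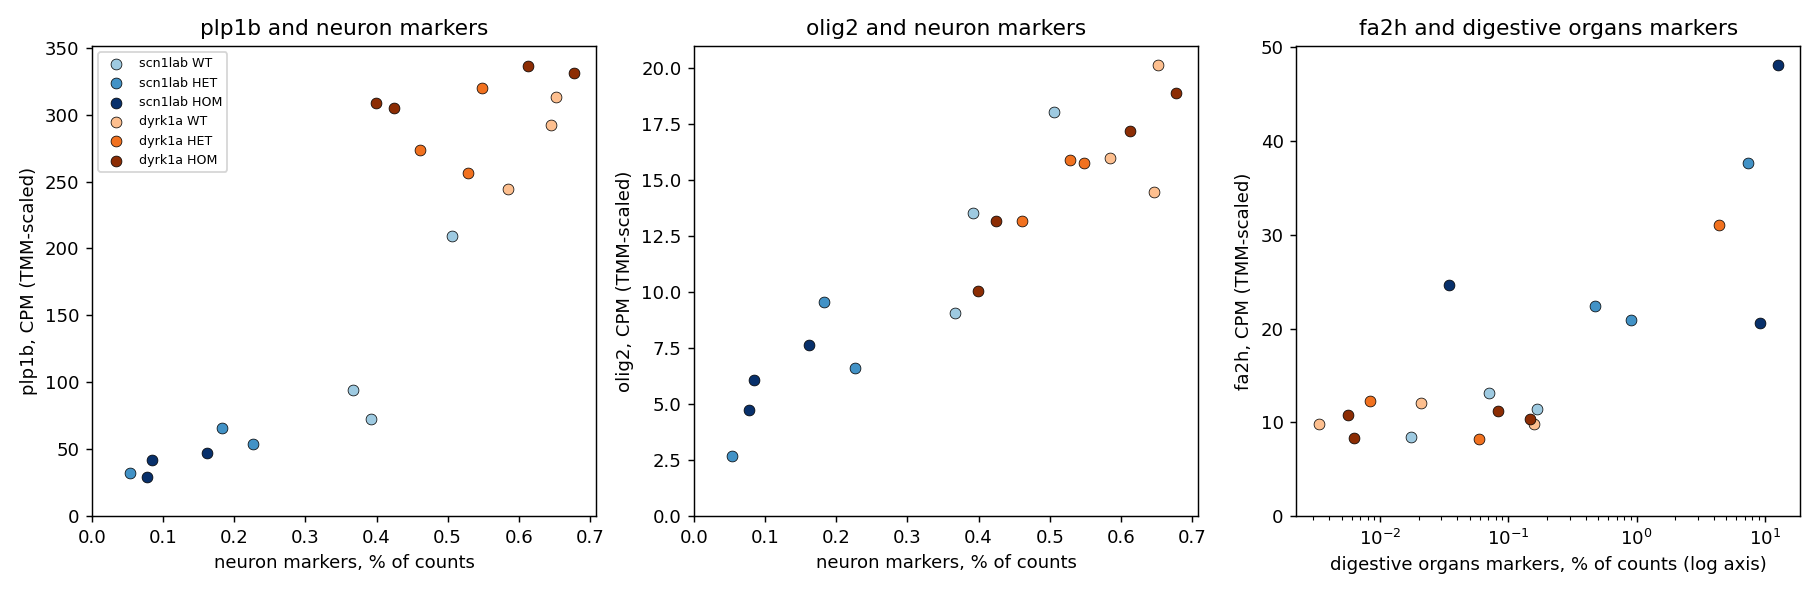
Level of plp1b and olig2 (TMM-scaled CPM) against the share of counts of 16 neuron marker IDs, and level of fa2h against the share of 15 digestive organ IDs (log axis), in each of the 19 libraries, coloured by group. The scn1lab HOM and HET libraries are lowest for neuron markers and plp1b, whereas for olig2 HET2 overlaps WT. The level of fa2h is highest in scn1lab HOM3, scn1lab HET2 and dyrk1a HET4 (48.1, 37.7 and 31.0 CPM), with digestive shares of 12.6%, 7.36% and 4.37%. In scn1lab HOM1, with a digestive share of 9.24%, it is 20.6 CPM. In scn1lab HOM2, with a digestive share of 0.0342%, it is 24.7 CPM.

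Markers of other tissues were read in the scn1lab line as well. Radial astroglia markers took 0.174% to 0.324% of the counts in HOM and 0.258% to 0.277% in HET, below the 0.473% to 0.650% in WT. The 11 IDs were split in direction. Against WT, 7 lay below 0 and 4 above in HOM (median log2 change -0.31). In HET, 6 lay below 0 and 5 above (median -0.07). The share of skin markers overlapped, at 2.73% to 6.18% in HOM, 1.51% to 5.17% in HET and 2.24% to 4.03% in WT. By ID, all 11 skin markers lay above 0 in HOM against WT, with a median log2 change of 1.04 and 0 called by edgeR. Of the 11, 9 had an unadjusted p under 0.05, where edgeR had 18.9% of all genes. Without HET in the fit, edgeR called 6 of the 11 higher, and 10% of all genes. The same fit called 14 of the 16 neuron IDs and 3 of the 11 radial astroglia IDs lower. In HET against WT, 10 of the 11 lay above 0. Markers of Schwann cells and neural crest took 0.0126% to 0.0249% in HOM, which overlapped the 0.0228% to 0.0251% in WT, and 0.0113% to 0.0190% in HET, which did not. Photoreceptor markers varied most within WT, from 0.00246% to 0.608%, with 0.00458% to 0.0544% in HOM and 0.0207% to 0.184% in HET. Of the 14 photoreceptor IDs tested, all 14 lay below 0 in HOM against WT, with a median log2 change of -3.76 and 0 called by edgeR. In dyrk1a their share was 0.00431% to 0.0165% in HOM and 0.00648% to 0.158% in WT. Of these lists, at least 10 of 11 radial astroglia, all 11 skin, at least 6 of 7 Schwann and neural crest and at least 12 of 15 photoreceptor IDs had counts in each library. Their part in the levels of ugt8, fa2h, mpz and plp1b was not tested.

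The highest correlations were those of mpz and plp1b with each other, with cldnk and with olig2. With group means removed, the correlation over the 19 libraries (Pearson, log2(CPM + 1), a description) was 0.90 between mpz and plp1b, 0.84 between plp1b and cldnk, 0.79 between mpz and cldnk, 0.71 between plp1b and olig2, and 0.70 between mpz and olig2. It was 0.13 between plp1b and mbpa and -0.24 between plp1b and mbpb. With the mean of the neuron list it was 0.83 for olig2, 0.58 for plp1b and 0.49 for mpz. The enzymes ugt8 and fa2h were related to each other at 0.39, and to the sheath gene plp1b at -0.25 and -0.35. Some of their correlations were near 0, such as -0.13 for ugt8 with mag, -0.03 for fa2h with mag and -0.01 for fa2h with olig2. Within each line alone the correlations were taken with group means kept. On that measure mpz and plp1b had 0.97 in scn1lab and 0.48 in dyrk1a, and plp1b and cldnk had 0.83 and 0.85. In dyrk1a, plp1b had 0.05 with ugt8 and 0.17 with olig2, against -0.85 and 0.88 in scn1lab. All of these libraries share their scaling factors and their composition, so correlations carry these too.

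By a rule of highest correlation with the mean of the 9 genes over all 19 libraries, the genes most alike were TUBB2B (0.93), si:dkeyp-69c1.7 (0.93), OTP (ENSDARG00000058379, 0.92), TTC5 (0.92), zgc:165409 (0.92), CPLX1 (0.91), NAPG (0.91) and IFT52 (0.91), of 18633 candidates. With group means removed they were OTP (0.85), OPRL1 (0.85), HOXC5 (0.84), KCNC2 (0.84) and the second OTP copy (ENSDARG00000014201, 0.83). The first set reflects the split between lines as well, since the mean of the 9 does. That mean joins genes that ran against each other: over the 19 libraries, ugt8 and fa2h had correlations of -0.72 and -0.74 with plp1b. Taken over values scaled to each gene's own mean and SD, it overlapped between the scn1lab genotypes. It was -0.80 to -0.23 in HOM, -0.66 to -0.15 in HET and -0.31 to 0.02 in WT.

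Related genes were read from lists of the same pathway, 0 members of which were called in HOM against WT of either line. In scn1lab, the 13 lineage transcription factors tested had a median log2 change of -0.91, and a lowest value of -1.84. The genes with the smallest p were olig1 (-1.35, SE 0.43, edgeR adjusted p = 0.176), a partner of olig2, and pou3f1 (-1.27, adjusted p = 0.22), a regulator of myelination. They stood at 2.91 ± 0.121 and 25.9 ± 7.55 CPM in HOM (n = 3), and 7.41 ± 1.96 and 62.5 ± 15.4 in WT. The 9 precursor genes had a median of -0.46, with LHFPL3 (-1.71, adjusted p = 0.157) and TNR, an extracellular matrix protein, at -2 (adjusted p = 0.16).

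The 31 other myelin sheath and paranode genes had a median of -0.31 in scn1lab HOM, with NFASC, a paranodal adhesion molecule, at -1.15 (edgeR adjusted p = 0.157) and pllp, a plasmolipin of myelin and gut epithelium, at 2.75 (adjusted p = 0.16). In HOM, pllp stood at 58.0 ± 60.9 CPM, against 8.61 ± 2.21 in WT (n = 3 each). The 29 lipid genes had a median of 0.59, in the direction of ugt8 and fa2h, with ELOVL7 at 1.36 and DEGS2, a ceramide enzyme, at 1.61 (adjusted p = 0.157 for both). The 20 axon to glia genes had a median of 0.08, with LINGO1 at -1.96 (adjusted p = 0.149) and FYN at -1.19 (adjusted p = 0.157). All of these medians stand beside 0.09 over all genes tested. At an unadjusted p under 0.05, where edgeR had 18.9% of all genes, these lists had in turn 4 lower factors, 3 lower precursor genes, 4 higher and 6 lower sheath and paranode genes, 9 higher and 1 lower lipid genes, and 3 higher and 5 lower axon to glia genes.

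Without HET in the fit, where 10% of all genes were called, edgeR called 3 lower of 12 lineage factors, 2 lower of 9 precursor genes, 4 lower and 1 higher of 31 sheath and paranode genes, 5 higher of 27 lipid genes, and 3 lower and 3 higher of 20 axon to glia genes. In dyrk1a HOM against WT the medians of the same lists were 0.24, -0.32, -0.10, 0.06 and -0.01, against 0.01 over all genes. There the genes with the smallest p in their list were ascl1a (0.41, edgeR adjusted p = 0.66) and SOX9 (0.41, adjusted p = 0.776) among the factors, and LHFPL3 (-0.62, adjusted p = 0.568) and PTPRZ1 (-0.51, adjusted p = 0.7) among the precursor genes. In the sheath and paranode list they were CNTN1, an axonal adhesion molecule, at -1.15 (9.90 ± 3.51 CPM in HOM, n = 4, and 22.1 ± 9.57 in WT, n = 3; edgeR adjusted p = 0.559) and cnp, a myelin enzyme, at 0.55 (77.7 ± 11.8 CPM in HOM and 53.3 ± 8.81 in WT; adjusted p = 0.564). The lipid genes were ELOVL7 (0.53, adjusted p = 0.572) and DEGS2 (0.66, adjusted p = 0.67), and the axon to glia genes NRG1, an axonal growth factor, at 0.53 (adjusted p = 0.502) and erbb3b, its receptor, at 0.89 (adjusted p = 0.639).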

How the data were processed

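The submitters' processing notes name Trim Galore 0.5.0, HISAT2 2.1.0, StringTie 1.3.3b and DESeq2 1.22.1, with the genome build GRCz11. The authors deposited raw counts per gene, whole numbers without scaling, which were used as deposited. Symbols came from a supplied table of gene names; no gene coordinates or sequences were used here. The kit used for RNA extraction is not given per library, so it was not used here. Labels do not tie libraries to clutches, so p-values measure the spread between single heads. Of the 10 genes, 1 is not reported here, and counts and medians are over the other 9. The genes and lists were chosen with earlier results of these data known.

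Tests were two-sided robust quasi-likelihood F tests in edgeR 4.0.16 (R 4.3.3) after filterByExpr and TMM scaling, in 1 fit per line, and for differences between lines in 1 fit of 19 libraries. A call needs a Benjamini-Hochberg adjusted p under 0.05 over all genes tested. SEs were computed back from the F statistic. Alternatives were DESeq2 1.42.0, other scaling, no filter, only the 2 groups compared, a replicate block, and each library left out. From each pathway list, the 2 genes with the smallest unadjusted p per line were named where none passed. The test was also run on simulated data, where 2-fold changes were often missed. The simulation gave every gene the same dispersion and had no differences in tissue composition between libraries. It therefore does not measure how often changes are missed in these data. Depth per library was 15.1 to 29.9 M counts.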

Additional observations from a re-analysis of the deposited data

How the results depend on the processing

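Of 157 recounts of the genes called, over the 8 comparisons and their alternatives, 154 gave 0, as in the main test. The exceptions were 3 called by DESeq2 and 2 with only the 2 groups in the fit (both scn1lab HOM against WT), and 2 called by DESeq2 for the difference between lines in the HOM effect. Leaving out each library in turn gave counts from 0 to 0 in all comparisons. In scn1lab HOM against WT, plp1b, mpz, mag, cldnk and olig2 stayed below 0 and ugt8 and fa2h above 0 under all 17 alternatives. Without WT3 of the scn1lab line, the median log2 change of the 9 genes there was -0.65 and the difference between lines 0.65. Without the libraries with a digestive share over 2%, which left HOM2 as the lone scn1lab HOM library and assumed it to vary like the other groups, the median was -0.69. The limit of 2%, the digestive share as a covariate and total counts with no scaling factor were alternatives chosen after seeing the data.

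Directions turned for small changes. Leaving out each library gave -0.10 to 0.21 for mbpb in scn1lab HOM and -0.98 to 0.0763 for cldnk in scn1lab HET. For dyrk1a HOM the ranges were -0.16 to 0.17 for mpz, -0.0252 to 0.40 for cldnk, -0.31 to 0.14 for ugt8 and -0.11 to 0.0619 for fa2h, and for mbpb in the difference between lines -0.0205 to 0.22. With the digestive share as a covariate, cldnk in scn1lab HET was at 0.041. With no scaling factor, mbpb was at -0.28 in scn1lab HOM and -0.24 in HET, where the median of all genes moved to -0.37 and -0.46. The cause of these turns was not tested.

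The replicate block called 0 of the 9 in every comparison, and turned ugt8 to 0.14 and fa2h to 0.43 in dyrk1a HOM. Same-numbered libraries had correlations of their deviations from -0.41 to 0.15 in scn1lab (median -0.04, 9 pairs) and -0.22 to 0.32 in dyrk1a (median 0.11, 6 pairs). Differently numbered libraries had -0.34 to 0.45 (median 0.01) and -0.30 to 0.32 (median -0.03). With so few pairs, these values cannot decide whether the numbers pair the libraries.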
